A study of Homo sapiens with 16 samples.

Results

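Gene bodies of 100 to 200 kb were examined in nascent RNA of the human line HAP1, whose cells are near-haploid and go back to the leukaemia line KBM-7. They were taken from a table of 9944 gene-body regions by their length alone, as rows whose end lies more than 100000 and at most 200000 bases after their start. Genes named ZNF or SLC and MATN2, 15 rows in all, were left aside, which gave 570 members. New RNA was labelled with the uridine analogue 4-thiouridine (4-SU, 1 mM) for the last 30 min, fragmented, pulled down and sequenced (TT-chem-seq). All 16 libraries came from wild-type HAP1 cells and formed 8 groups of 2. One group was given no 4-SU and no inhibitor, and one was labelled without an inhibitor and is called untreated here. In the other 6 groups the labelled cells had been given BMH-21 (1 µM), DRB (100 µM) or ML-60218 (20 µM) for 1 h or 5 h. BMH-21 acts on RNA polymerase I, DRB on RNA polymerase II, and ML-60218 is described as an inhibitor of RNA polymerase III. Every library comes from this 1 line. Sample titles mark both members of each pair as "biol rep", which presents them as biological repeats. Whether they stem from separate cultures is not stated. The spread behind each p-value is that between these libraries, and how much of it is technical cannot be told.

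RNA polymerase II makes the RNA of every protein-coding gene. After it starts, it pauses close to the promoter until the kinase CDK9 releases it into the gene body. DRB inhibits CDK9 and related kinases, and polymerases that have already left the pause are known to go on along the gene. Because the pulse is short and the RNA is broken up before the pulldown, tags over a gene body report where RNA was being made during labelling, introns included.

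The members spanned 100013 to 199629 bases, with a median of 130770. Chromosomes 2 and 4 held 51 each and chromosome 1 held 46, and 271 lay on the plus strand and 299 on the minus strand. A RefSeq gene of the same or an older symbol was found for 482 members, of which 442 were protein coding and 38 long noncoding RNA genes. No member overlapped another region of the table, but 132 held a further protein-coding or long noncoding RefSeq gene, 18 a small nucleolar RNA gene and 5 a microRNA gene. Tags were assigned without regard to strand, so RNA of such nested or antisense genes counts towards the member that holds them. Of the 482 matched members, 2 (CHRNA7 and TJP1) were listed at a position that did not overlap the RefSeq gene of that symbol, and both had 0 tags in untreated cells. C6 and RP11-30L8.1 were the other members at 0.

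Promoters are shown first for the genes at the extremes of the response to DRB, so that their sequence can be set beside the levels given further down. They are the 2 highest and the 2 lowest at each time among the members named for their level that have a RefSeq start within 1000 bases of the start of the measured region. SGK3, EIF3H and EYA1, which are among the extremes after 5 h, are not shown. Each sequence is RefSeq's GRCh38.p14 window from 250 bases before to 50 bases after the gene's start, read along the gene. Capitals mark every match to the GC box core GGGCGG or its reverse complement CCGCCC, the letters that Sp1 family factors are known to bind. The TATA box core TATAAA was searched on both strands too and was in none of the 8.
Of the genes so chosen, the highest levels after 1 h of DRB were those of ARHGEF10L (a guanine nucleotide exchange factor, promoter at chr1:17539448-17539747, plus strand) and TMCO4 (chr1:19799867-19800166, minus strand).
ARHGEF10L: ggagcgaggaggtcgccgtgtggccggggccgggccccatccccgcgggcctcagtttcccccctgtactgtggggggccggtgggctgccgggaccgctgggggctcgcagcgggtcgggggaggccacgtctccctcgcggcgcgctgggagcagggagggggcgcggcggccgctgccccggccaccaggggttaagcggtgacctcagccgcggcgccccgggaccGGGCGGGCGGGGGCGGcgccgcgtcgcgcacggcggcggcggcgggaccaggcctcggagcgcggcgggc
TMCO4: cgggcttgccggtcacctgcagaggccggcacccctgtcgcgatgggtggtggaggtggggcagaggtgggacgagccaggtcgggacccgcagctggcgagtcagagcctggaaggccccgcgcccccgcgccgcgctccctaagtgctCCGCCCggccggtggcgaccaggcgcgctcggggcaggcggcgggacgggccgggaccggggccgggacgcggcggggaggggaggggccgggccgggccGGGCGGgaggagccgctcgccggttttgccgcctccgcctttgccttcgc
The lowest after 1 h were those of AGBL3 (a carboxypeptidase that trims glutamate chains of tubulin, chr7:134986258-134986557, plus strand) and FOXO1 (a forkhead transcription factor of insulin signalling, chr13:40666592-40666891, minus strand).
AGBL3: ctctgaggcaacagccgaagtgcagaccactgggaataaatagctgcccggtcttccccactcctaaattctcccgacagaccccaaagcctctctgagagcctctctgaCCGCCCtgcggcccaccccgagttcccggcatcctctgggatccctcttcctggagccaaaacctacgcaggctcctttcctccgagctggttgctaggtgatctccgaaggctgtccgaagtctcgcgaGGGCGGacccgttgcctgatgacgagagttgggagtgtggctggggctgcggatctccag
FOXO1: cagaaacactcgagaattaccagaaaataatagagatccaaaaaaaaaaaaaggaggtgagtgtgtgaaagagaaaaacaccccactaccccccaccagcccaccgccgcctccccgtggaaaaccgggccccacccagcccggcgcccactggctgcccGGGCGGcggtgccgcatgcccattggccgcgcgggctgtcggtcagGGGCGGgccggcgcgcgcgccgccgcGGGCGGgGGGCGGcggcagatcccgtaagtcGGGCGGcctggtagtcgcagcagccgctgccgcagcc
The highest after 5 h were those of INTS4 (a subunit of the Integrator complex, chr11:77994619-77994918, minus strand) and VIT (vitrin, a matrix protein, chr2:36696457-36696756, plus strand).
INTS4: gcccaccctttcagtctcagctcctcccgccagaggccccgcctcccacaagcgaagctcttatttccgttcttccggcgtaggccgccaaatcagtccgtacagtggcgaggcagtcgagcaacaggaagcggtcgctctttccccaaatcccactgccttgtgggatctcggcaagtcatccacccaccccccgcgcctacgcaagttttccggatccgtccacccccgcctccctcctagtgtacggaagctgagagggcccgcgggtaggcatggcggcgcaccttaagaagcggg
VIT: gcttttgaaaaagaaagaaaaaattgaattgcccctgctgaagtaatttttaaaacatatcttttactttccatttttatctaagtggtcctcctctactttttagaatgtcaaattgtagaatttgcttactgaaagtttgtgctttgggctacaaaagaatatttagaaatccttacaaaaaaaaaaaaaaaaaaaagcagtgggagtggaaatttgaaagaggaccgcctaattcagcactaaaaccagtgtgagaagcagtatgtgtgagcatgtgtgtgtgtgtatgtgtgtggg
The lowest after 5 h were those of RICTOR (the defining subunit of the kinase complex mTORC2, chr5:39074350-39074649, minus strand) and CWF19L2 (a splicing-related protein, chr11:107457776-107458075, minus strand).
RICTOR: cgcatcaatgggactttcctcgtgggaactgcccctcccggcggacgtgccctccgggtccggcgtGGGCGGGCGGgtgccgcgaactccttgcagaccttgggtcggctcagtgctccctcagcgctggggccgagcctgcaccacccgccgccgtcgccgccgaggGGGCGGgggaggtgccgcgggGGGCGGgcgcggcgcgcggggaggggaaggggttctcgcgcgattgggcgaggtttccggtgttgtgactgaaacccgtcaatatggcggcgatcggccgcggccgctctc
CWF19L2: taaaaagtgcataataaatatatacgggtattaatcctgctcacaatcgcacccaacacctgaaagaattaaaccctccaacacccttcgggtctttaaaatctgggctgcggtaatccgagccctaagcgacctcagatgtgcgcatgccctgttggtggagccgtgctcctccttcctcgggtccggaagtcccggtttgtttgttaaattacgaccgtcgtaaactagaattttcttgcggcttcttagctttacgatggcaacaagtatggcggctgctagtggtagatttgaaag
The GC box core occurred 3 times in the ARHGEF10L promoter, 2 times each in those of TMCO4 and AGBL3, 5 times in that of FOXO1 and 4 times in that of RICTOR, and in none of the other 3. The letters thus occurred at both ends of the response at 1 h. G and C made up 82.7% of the ARHGEF10L window and 33.7% of the VIT window.

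Among all 35116 promoters in the RefSeq table, 45.0% held the GC box core and 11.5% the TATA core. Among the 315 members whose promoter lies within 1000 bases of the region's start, the shares were 67.0% and 7.30%. In the 233 of these with at least 50 tags in untreated cells they were 76.0% and 4.72%. Ordered by level after 1 h of DRB, the lowest tertile (77 promoters) held the GC box core in 79.2% and the highest tertile (78 promoters) in 70.5%. The TATA core was in 5.19% and 5.13% of them. These shares describe the letters in the windows and carry no test.

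Depth set how many members could be followed. The tables held 55845.5 to 6059928.5 tags in gene bodies per library, or 0.264% to 6.45% of all tags, and the members took 5847.5 to 785693.5 of them. The members made up 12.7% and 12.8% of gene-body tags in untreated cells, and 10.4% to 20.4% over all libraries, with the highest shares (20.4% and 20.3%) after 1 h of DRB. At least 50 tags over both untreated libraries were found for 343 members (60.2%), 285 had at least 200 and 132 at least 1000. The median density was 0.115 tags per kb in a library of 10M, and from the 10th to the 90th percentile it ran from 0.00291 to 1.07. BCOR, a corepressor of the Polycomb system on the X chromosome (chrX:40051247-40177329, minus strand, hg38), was densest at 7.72 on this scale, and the 10 members with the most tags held 15.3% of all member tags. The 16 blood lineage genes used to check the line's origin gave 8 in the table, with 586 and 896.5 tags together in the untreated libraries (0.0570% and 0.0534% of gene-body tags). RUNX1 held most of these (497 and 766.5), 3 of the 8 had under 10 tags and CD33 had 0.

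Levels are given on the spike-in scale as a percentage of the like-numbered untreated library, computed with the yeast RNA added to each sample as the authors' ratios imply it. The relative scale instead divides each library by its own typical gene-body signal, so a gene can be higher on it while its level on the spike-in scale is lower. With fewer labelled cells or less RNA per cell the tags of a gene fall alike, and the 2 cannot be told apart in these libraries. Over the 343 members with at least 50 untreated tags, the median level without 4-SU was 0.768% and 2.47% in the 2 libraries (1.62% ± 1.20, SD, n = 2). With BMH-21 it was 90.1% and 93.5% at 1 h and 120% and 118% at 5 h. With DRB it was 46.3% and 54.7% at 1 h and 11.2% and 9.90% at 5 h. With ML-60218 it was 103% and 105% at 1 h and 81.2% and 92.9% at 5 h. By these medians the DRB libraries lay below all other labelled libraries, and every labelled library lay above both libraries without 4-SU.

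**Figure D1:**
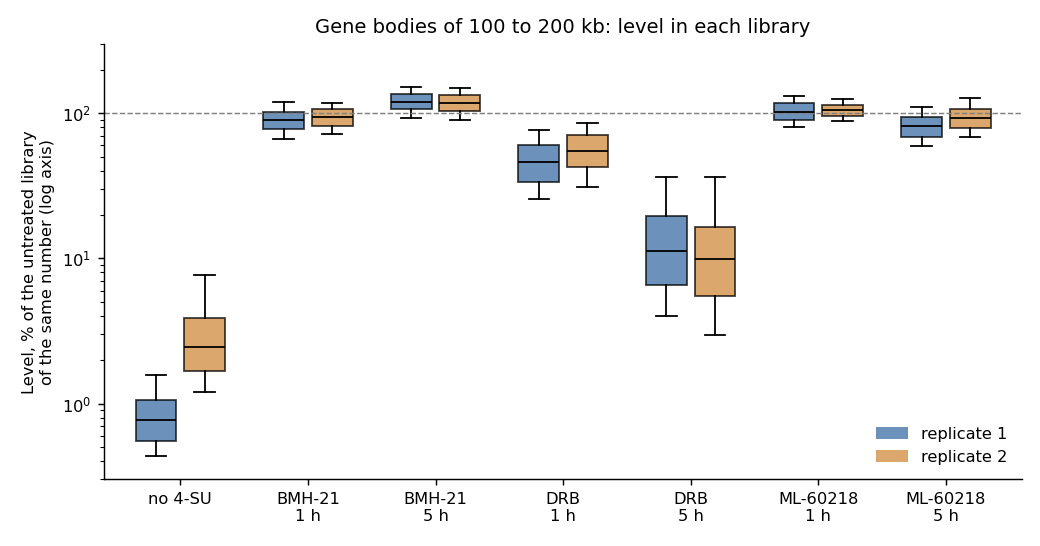
Level of the 343 members with at least 50 untreated tags in each library, in percent of the like-numbered untreated library on the spike-in scale (log axis). Boxes span the quartiles with the median as a line and whiskers the 10th to 90th percentile over members; the DRB 5 h medians, 11.2% and 9.90%, lie between those without 4-SU and all others.

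The comparison of untreated with unlabelled cells measures how much RNA came through the pulldown without 4-SU. On the spike-in scale, 408 of 561 members tested were higher in labelled cells and 0 were lower (limma across all genes, Benjamini-Hochberg adjusted p under 0.05, n = 2 per group), against 84.8% of all regions called higher. The median change of members was 5.04 on the log2 scale, against 5.38 over all regions tested. Relative to typical gene-body signal, 88 members were higher and 207 lower in labelled cells, where the shares of all regions were 18.2% and 19.5%. The members lower on this scale had few tags: 171 of the 207 had under 50 untreated tags, with a median of 9.5. With all libraries 295 members were called in either direction on this scale, with a median change of -0.58 (log2). That median was -0.79 without the first library lacking 4-SU and -0.34 without the second. It was -0.59 without the first untreated library and -0.57 without the second. The number called changed with the library left out, in fits that leave 1 library in a group.

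BCOR had 4012.5 and 7246 tags in untreated cells and 261 and 129 without 4-SU, which left 0.314% and 0.579% of the untreated level. Both unlabelled values lie below the group's medians, and BCOR was higher in labelled cells by 1.91 on the relative log2 scale (SE 0.22, limma adjusted p = 0.000121, n = 2 per group). FGFR2, a receptor for fibroblast growth factors, was higher by 1.74 on that scale (SE 0.22, limma adjusted p = 0.000218). At the other end, SMOC1, a secreted matrix protein gene, had 71 and 111 untreated tags and kept 4.42% and 14.9% of its level without 4-SU. It was lower in labelled cells by the relative measure (log2 change -2.32, SE 0.43, limma adjusted p = 0.00181). INTS4 kept 4.86% and 7.33% and RBFOX2, a splicing regulator, 3.12% and 7.93%, and the mean levels of all 3 without 4-SU lay above the 90th percentile of the 343 members (4.78%). INTS4 has partial copies elsewhere in the genome, and how the authors assigned reads shared with them is not given in the sources used here.

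After 1 h of DRB the members kept more of their signal than the table as a whole, and most of them were below their untreated level. The median level was 50.5% ± 5.97 (SD, n = 2) over the 343 members, against 24.6% ± 2.10 over the 3932 regions of the whole table that met the same minimum of tags. Both libraries lay below 100% for 322 of 343 members (93.9%), against 95.1% of all regions. By mean level 1 member lay under 10%, 17 between 10% and 25%, 147 between 25% and 50%, 131 between 50% and 75%, 36 between 75% and 100% and 11 above 100%. On the spike-in scale 267 of the 500 members tested fell and 5 rose (limma, adjusted p under 0.05), where 66.7% of all regions fell and 0.994% rose. Without the first untreated library 2 rose in place of 5, and 3 did without either DRB 1 h library. Relative to typical gene-body signal the count went the other way, with 175 members higher (35%) and 14 lower (2.8%), against 14.2% and 27.9% of all regions. The median change of members on this scale was 0.65, and that of all regions was -0.18 (log2). Without the first untreated library 99 members were called (92 higher, 7 lower) in place of 189.

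The 5 members that rose on the spike-in scale, named after their values were seen, all had under 50 untreated tags: ADAM18, FER1L6-AS2, IKZF3, RP11-1101K5.1 and RP11-457K10.1. ADAM18, a gene of the testis in background knowledge, had 2 and 11 untreated tags and 21 and 41.5 after 1 h of DRB. IKZF3, a lymphoid transcription factor, had 15.5 and 23.5 untreated tags and 18.5 and 42.5 with DRB. Their levels without 4-SU averaged 35.9% and 8.76% of the untreated level, so part of their untreated tags was also seen without labelling.

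Of the members with at least 200 untreated tags, the 6 with the highest mean level after 1 h of DRB were at or above their untreated level in both libraries. SIPA1L2, of a family of Rap GTPase activators, was at 119% and 120% (164 and 221.5 tags against 253.5 and 383 untreated). SCMH1, a Polycomb protein, was at 111% and 127%. ARHGEF10L stood at 122% and 112%, and TMCO4 at 122% and 110%. ABCC1, the drug efflux pump MRP1 (chr16:15949576-16143062, plus strand, hg38), reached 106% and 116% with far more tags, 936.5 and 1643.5 against 1622.5 and 2956 untreated. SRPK2, a kinase of splicing factors, was at 115% and 103%. For all 6, both DRB values lay above 100%, and none passed the test on the spike-in scale (ABCC1 log2 0.15, limma adjusted p = 0.23; SRPK2 log2 0.12, adjusted p = 0.68). Against typical gene-body signal, which had fallen, each was higher, with SCMH1 at 1.84 (SE 0.18, limma adjusted p = 4.03e-05, n = 2 per group) and ABCC1 at 1.74 (SE 0.16, adjusted p = 3.05e-05). CTNNBL1, a spliceosome-associated protein, was among the 8 largest relative rises with 1.69. The call for ARHGEF10L was lost without the first untreated library (limma adjusted p = 0.073).

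At the low end stood genes of several functions. AGBL3 had 4 and 11.5 tags after 1 h of DRB against 124.5 and 192.5 in untreated cells, a level of 5.89% and 12.4%. It was the lowest of the 343 members in mean level, and both DRB values lay far below both untreated ones (relative log2 change -1.93, SE 0.26, limma adjusted p = 0.00028, n = 2 per group). FOXO1 was at 18.1% and 14.5% (log2 -1.03, SE 0.19, adjusted p = 0.00158). BCOR had 408.5 and 508 tags against 4012.5 and 7246, which put it at 18.7% and 14.6% (log2 -1.0, SE 0.20, limma adjusted p = 0.00265). MSN (moesin, which ties actin to the membrane) was at 18.4% and 14.8%, FIGN (the microtubule-severing protein fidgetin) at 16.7% and 17.2%, and COLGALT2 (a collagen galactosyltransferase) at 19.9% and 13.6%. FIRRE, a nuclear long noncoding RNA of the X chromosome, was at 16.7% and 27.4%. The 6 long noncoding members with enough tags had a median of 31.2% ± 6.36, against 51.3% ± 6.82 for the 319 protein-coding ones (SD, n = 2), and 6 members are too few to say more. The 28 members on the X chromosome, where BCOR, MSN and FIRRE lie, had a median of 47.3% ± 6.51, and within each library they lay 3.62 and 4.18 percentage points below the autosomal members. PCGF5 (10.7% and 24.7%, adjusted p = 0.0359) lost its call without the first DRB 1 h library and without either untreated library, COLGALT2 without the second untreated library and FIRRE without the first.

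Within the range of 100 to 200 kb the level after 1 h of DRB was higher in longer genes. The median was 48.0% ± 5.62 in members of 100 to 120 kb (n = 121 genes) and 48.0% ± 5.59 at 120 to 140 kb (84 genes; SD over 2 libraries). It was 54.5% ± 4.92 at 140 to 160 kb (64 genes), 59.2% ± 4.96 at 160 to 180 kb (42 genes) and 63.7% ± 6.58 at 180 to 200 kb (32 genes). From the first to the last bin the median differed by 15.6 ± 0.956 percentage points (SD over 2 libraries), and the order held in each library from the second bin on. Just outside the range, genes of 80 to 100 kb were at 42.3% ± 3.33 (180 genes) and genes of 200 to 220 kb at 53.4% ± 7.57 (29 genes), which is below the last bin of members. All 146 genes over 200 kb with enough tags had a median of 60.5% ± 5.98. Across the 343 members, which share the same 4 libraries, Spearman's rho of span with the level was 0.253 at 1 h and 0.048 at 5 h. After 5 h the same bins had medians of 10.8% ± 1.03, 8.75% ± 0.392, 9.42% ± 0.661, 11.5% ± 0.328 and 13.1% ± 0.849. These too went up from the second bin on in both libraries, over a smaller range.

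Longer members also had fewer tags per kb (Spearman's rho -0.210 over 343 members), so the bins were set out by density as well. In the middle tertile of density the median after 1 h of DRB was 46.5% ± 8.94 for 79 members of 100 to 150 kb and 63.6% ± 6.38 for 35 of 150 to 200 kb. In the densest tertile it was 47.8% ± 3.74 for 97 members and 63.8% ± 3.09 for 17, a thinly filled group. In the least dense tertile it was 49.6% ± 5.67 for 69 members and 54.1% ± 7.32 for 46. Taken within each library, the longer members were higher by 17.1 ± 2.56 percentage points in the middle tertile, 16.01 ± 0.654 in the densest and 4.46 ± 1.65 in the least dense (SD over 2 libraries). At the limits of the range single genes varied as much: CEP70, just inside 100 kb, was at 26% and 73.9% and CLCN3 at 27.5% and 41.9%, while LRP12, just outside it, was at 29.6% and 31.3% and PUM2 at 43.6% and 38.9%. At 200 kb, FUT9 (30.6% and 63.2%) and MAP3K13 (42.8% and 50.6%) lay inside, and SCAI (52.0% and 63.7%) and RTTN (48.1% and 57.6%) outside.

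**Figure D2:**
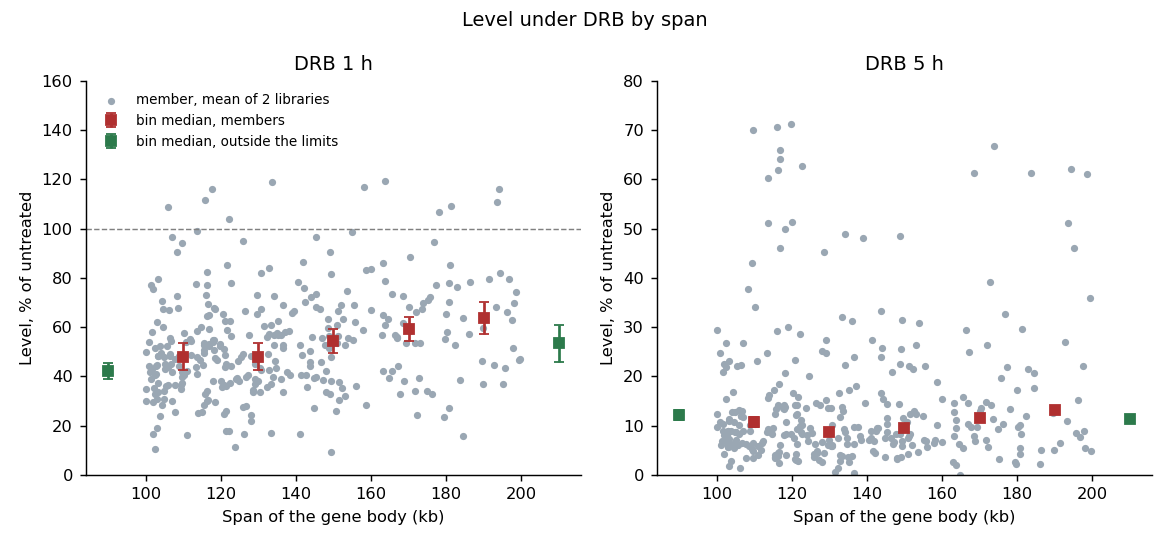
Level of each of 343 members after 1 h (left) and 5 h (right) of DRB, in percent of untreated on the spike-in scale, against the length of the gene body in kb. Large points are medians of 20-kb bins with the SD over 2 libraries; at 1 h they go from 48.0% at 100 to 120 kb to 63.7% at 180 to 200 kb, and at 5 h they lie between 8.75% and 13.1% (9 members lie above the axis limit of 80%).

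After 5 h of DRB the members were lower still, and their median level was that of the table as a whole. The median was 10.6% ± 0.938 (SD, n = 2) over 343 members and 10.6% ± 0.688 over 3932 regions. Of the 343 members 169 had a mean level under 10%, 114 lay between 10% and 25%, 34 between 25% and 50%, 17 between 50% and 75%, 1 (NFASC, 123% and 51.5%) between 75% and 100% and 8 above 100%. On the spike-in scale 333 of 500 members tested fell and 37 rose (limma, adjusted p under 0.05), against 75.5% and 5.64% of all regions. Without the first untreated library 20 rose in place of 37. On the relative scale 145 were higher and 211 lower, against 24.4% and 38.4%, with a median change of -0.35 for members and -0.51 for all regions (log2). A fit of the 4 libraries compared alone called 90 higher and 87 lower, and without the first untreated library 93 were higher.

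Depth limits the DRB 5 h values more than any others. The 343 members had a median of 18.5 tags over both DRB 5 h libraries, 20 of them had 3 or fewer and EYA1 had 0. The median SD of log2 values of members between the libraries of a group was 0.12 without inhibitor, 0.24 with DRB for 1 h and 0.45 with DRB for 5 h. Of the 343 members 300 lay above both unlabelled libraries after 5 h of DRB, 42 overlapped with them and EYA1 lay below, whereas 341 lay above after 1 h. The like counts were not made over all regions, so they are not set against the rest of the genes. The 37 members that rose had few tags to start with: 32 had under 50 untreated tags, and over all 37 the median was 12.5 tags and the median level without 4-SU 41.0%. In the 145 members higher on the relative scale these medians were 17 tags and 22.9%, and in the 211 lower ones the median was 1001 tags.

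SGK3, a kinase of the AKT type that acts on endosomes (chr8:66712417-66860859, plus strand, hg38), was the exception among well-measured members. It had 74.5 and 57 tags after 5 h of DRB against 130 and 194.5 in untreated cells, which on the spike-in scale is 158% and 150% of untreated. The other 284 of the 285 members with at least 200 untreated tags had a mean level below 100%. Over the whole table, 19 of 2906 regions with that minimum had a mean level of at least 100%. With a minimum of 50 untreated tags the counts were 8 of 343 members and 76 of 3932 regions. SGK3 was at 57.2% and 69.5% after 1 h of DRB and at 0.817% and 3.68% without 4-SU, so both 5 h values lay above all of these. It rose on the spike-in scale (log2 0.62, limma adjusted p = 0.0133, n = 2 per group) and on the relative scale (log2 3.10, SE 0.20, adjusted p = 2.18e-06). The other 7 members with a mean above 100% had 64.5 to 116 untreated tags. They were CAMK2B (545% and 368%), LGR6 (350% and 281%), RFTN2 (236% and 202%), NMNAT2 (154% and 249%), POF1B (198% and 151%), TLL2 (107% and 209%) and RNF17 (170% and 129%), singled out after their values were seen. CAMK2B (a calmodulin-dependent kinase), LGR6 (an R-spondin receptor), RFTN2 and NMNAT2 (an NAD synthesis enzyme) passed the spike-in test.

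After SGK3, the highest levels at 5 h among members with at least 200 untreated tags ran from 50.0% to 71.3% of untreated by mean. EPG5, which joins autophagosomes to lysosomes, had 61 and 62.5 tags against 259 and 412 and stood at 65.0% and 77.6%. INTS4 stood at 77.2% and 64.2%, with 122 and 74 tags against 436 and 589.5. EIF3H, a subunit of translation initiation factor 3, was at 43.4% and 58.9%, ABCC1 at 47.1% and 55.1%, and VIT at 66.6% and 33.4%. Both DRB values of each lay below 100%, and each of these 5 fell on the spike-in scale (EPG5 log2 -0.49, limma adjusted p = 0.0253; ABCC1 log2 -0.97, adjusted p = 7.04e-06). On the relative scale each was higher, EPG5 by 1.99 (SE 0.15, limma adjusted p = 4.64e-06, n = 2 per group), INTS4 by 1.98 (SE 0.16, adjusted p = 8.29e-06) and ABCC1 by 1.51 (SE 0.16, adjusted p = 3.76e-05). ABCC1 was thus among the highest members at both times, with 277 and 318.5 tags at 5 h.

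The lowest members at 5 h were at the edge of what these libraries can count. EYA1, a coactivator and phosphatase of organ development, had 0 tags in both DRB 5 h libraries and 77 and 133.5 in untreated cells. With a floor of 3 tags over the group it was at least 18-fold lower. RICTOR had 1 and 0 tags against 412.5 and 514, a pooled level of 0.400% with a 95% exact counting interval of 0.0101% to 2.23%. CWF19L2 had 1 and 0 tags against 249.5 and 389.5, a pooled level of 0.6% (0.0152% to 3.34%). SUMF1, which activates sulfatases, had 1 tag in each library against 236 and 370, a pooled level of 1.27% (0.153% to 4.58%). B3GLCT, a glucosyltransferase, had 0 and 1 tags and was at 1.26% (0.0319% to 7.01%), and EPHA7, an ephrin receptor, had 0 and 2 and was at 1.98% (0.240% to 7.17%). These intervals cover counting error in the DRB libraries only and take the untreated count as fixed. LHFPL2, a 4-span membrane protein gene with 5 and 4 tags, stood at 2.20% and 1.79% and fell on both scales (relative log2 change -3.16, SE 0.12, limma adjusted p = 1.09e-07, n = 2 per group). Without 4-SU, RICTOR was at 0.585% and 1.77%, which overlaps with its values at 5 h of DRB, and LHFPL2 at 0.343% and 1.02%, below them.

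The 2 times of DRB were then set against each other directly. Of the 343 members, 296 had both 5 h levels below both 1 h levels, 11 had both above and 36 overlapped. These counts were not made over all regions, so there is no share to set them against. The median ratio of the members' 5 h to their 1 h level was 0.219. On the spike-in scale 299 of 500 members tested were lower at 5 h than at 1 h and 43 higher (limma, adjusted p under 0.05), against 40.6% and 12.9% of all regions. On the relative scale 244 were lower and 95 higher, against 25.6% and 30.7%. The higher count was 58 with edgeR and 35 with the 4 libraries compared alone, where 330 members were tested. The median relative change was -0.97 in members and 0.09 in all regions (log2).

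SUMF1 went from 76.2% and 57.4% at 1 h to 1.18% and 1.38% at 5 h (relative log2 change -4.75, SE 0.20, limma adjusted p = 1.48e-07, n = 2 per group). LHFPL2 went from 62.1% and 59.3% to 2.20% and 1.79% (log2 -4.03, SE 0.12, adjusted p = 1.57e-08). SCMH1, among the highest at 1 h, was at 14.7% and 11.2% at 5 h, and SIPA1L2 at 4.36% and 14.7%. These members were high at 1 h and low at 5 h, whereas ABCC1 was among the highest at both times. STXBP5 (tomosyn, a SNARE regulator), JADE3 (of a histone acetyltransferase complex), SH3PXD2B (a podosome adaptor) and RIN3 (a Rab5 exchange factor) followed with relative changes between -3.81 and -3.65. In the other direction SGK3 was higher at 5 h than at 1 h by 2.17 on the relative scale (SE 0.20, limma adjusted p = 1.13e-05) and by 1.28 on the spike-in scale (adjusted p = 0.000318). EPG5 was higher on the relative scale (1.32, SE 0.15, adjusted p = 3.95e-05) but did not pass on the spike-in scale (0.43, adjusted p = 0.063). AGBL3, the lowest member at 1 h, was at 31% and 31.9% at 5 h and was higher there on the spike-in scale (log2 1.84, limma adjusted p = 0.00055). Of the 43 members higher at 5 h, 35 had under 50 untreated tags, and the median over the 43 was 14.5 tags with a level without 4-SU of 27.8%.

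**Figure D3:**
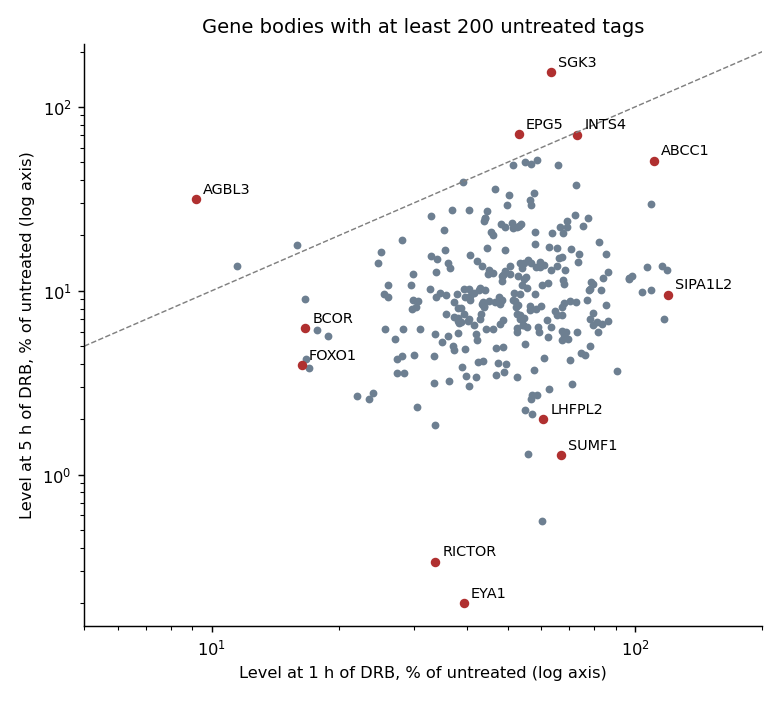
Mean level after 5 h against mean level after 1 h of DRB for the 285 members with at least 200 untreated tags, both in percent of untreated on the spike-in scale (log axes, values of 0 drawn at 0.2). Most points lie well below the dashed line of equal levels, and SGK3, EPG5 and AGBL3 are among the few above it; both axes share the untreated libraries.

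**Figure D4:**
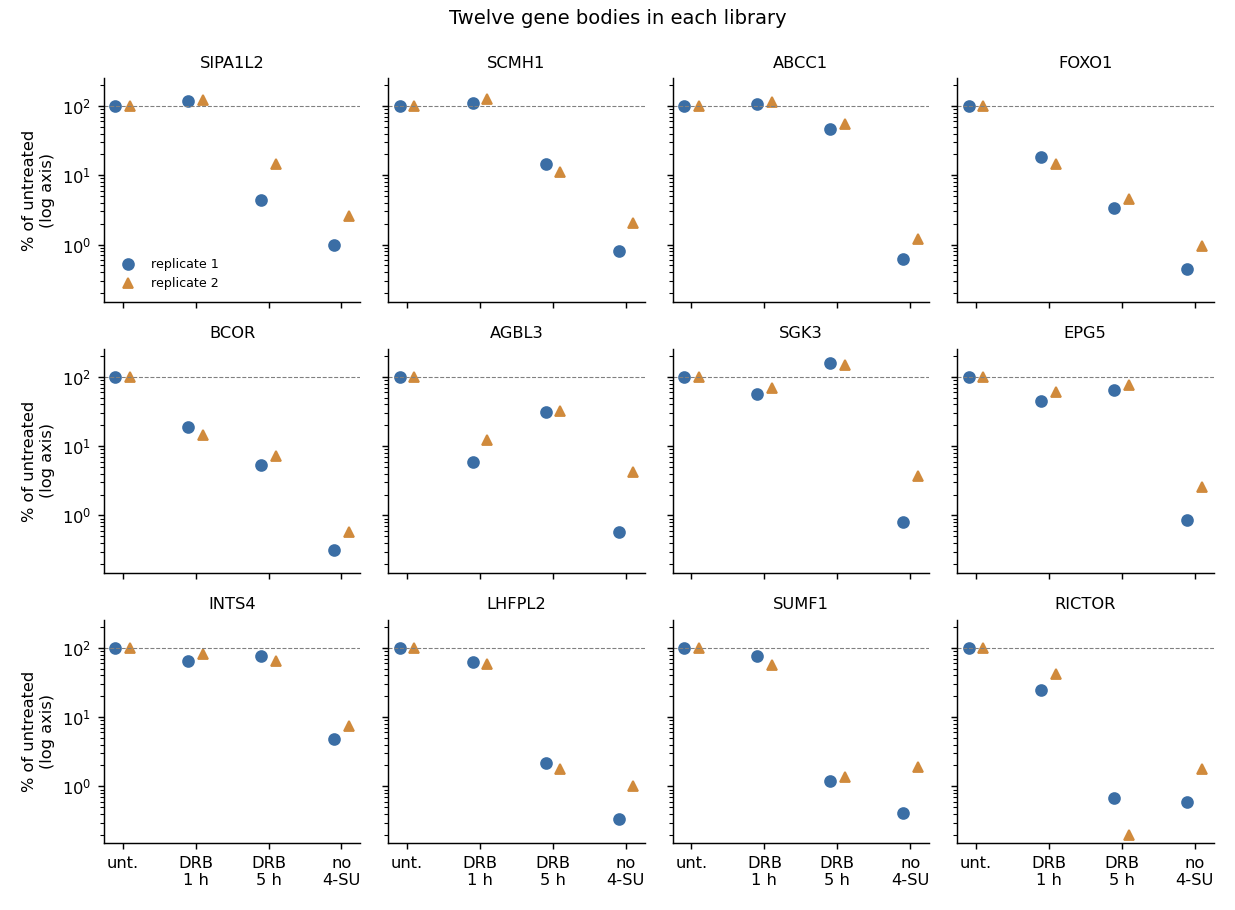
Level of 12 members in each library, in percent of the like-numbered untreated library on the spike-in scale (log axis, values of 0 drawn at 0.2). Each point is 1 library; at 5 h of DRB SGK3 is at 158% and 150%, while RICTOR is at 0.673% in 1 library and 0 in the other.

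Genes of known function were counted from lists written with earlier results of these data known, and few of each list were members. After 1 h of DRB 21 of their 27 tested members fell on the spike-in scale, against 66.7% of all regions, and after 5 h all 27 did, against 75.5%. All 3 chromatin regulators (CREBBP, TET1 and ASXL2) fell on the spike-in scale after both 1 h and 5 h of DRB, and CREBBP, a histone acetyltransferase, went from 57.9% and 66.0% at 1 h to 8.37% and 5.55% at 5 h. All 4 genome maintenance members (NIPBL, POLQ, BRIP1 and TP53BP1) fell at both times too. NIPBL, the cohesin loader, was at 44.3% and 48.4% and then 12.7% and 12.4%, whereas TP53BP1, of DNA double-strand break repair, was still at 28.2% and 18.2% at 5 h. Of the 5 growth signalling members (MAP4K4, RICTOR, PIK3CB, MET and JAK2), 2 fell on the spike-in scale at 1 h and 5 at 5 h. MAP4K4, a kinase upstream of JNK, was at 75.6% and 83.8% at 1 h and 7.22% and 7.99% at 5 h, and PIK3CB, a catalytic subunit of PI3 kinase, at 85.6% and 70.1% and then 7.52% and 12.6%.

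All 4 ubiquitin ligase and deubiquitinase members (UBE3C, USP47, RNF111 and NEDD4) fell at both times, with UBE3C at 26% and 41.4% and then 5.85% and 5.82%. Of the 3 vesicle and transport members (XPO4, PICALM and VPS41), 2 fell at 1 h and 3 at 5 h. VPS41, of the HOPS tethering complex, was at 81.4% and 75.2% at 1 h and 6.23% and 3.83% at 5 h, while PICALM, a clathrin assembly protein, was at 27.8% and 40.6% at 5 h. Of the RNA members, TNRC6B (of microRNA silencing) fell at both times and was at 4.81% and 7.93% at 5 h, and SRPK2 fell at 5 h. Of the 3 centrosome members (CDK5RAP2, PCM1 and CEP70), 2 fell at 1 h and 3 at 5 h, and both WNT pathway members (LRP5 and LEF1) fell at both times. The 1 blood lineage member, IKZF1, had 2 and 6 untreated tags, and the p53 and stress list had 0 members.

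With BMH-21 no member passed limma's test, and the median level was below 100% at 1 h and above it at 5 h. The median level was 91.8% ± 2.40 at 1 h and 119% ± 1.63 at 5 h (SD, n = 2), against 85.0% ± 2.73 and 118% ± 1.98 over all regions. Both libraries lay below 100% at 1 h for 180 of 343 members (52.5%), against 62.1% of all regions. Both lay above it for 73 (21.3%), against 13.3%. At 5 h both lay above it for 256 (74.6%), against 70.9% of all regions, and below it for 48 (14%), against 11.9%. The limma fit of all labelled libraries called 0 of 500 members at either time on either scale, as it called 0% of all regions. At an unadjusted p under 0.05 it gave 19 higher and 10 lower at 1 h and 13 and 14 at 5 h on the relative scale. On the spike-in scale the same threshold gave 4 higher and 29 lower at 1 h, and 56 higher and 6 lower at 5 h. With no change at all, a share of 0.05 of the 500 tests would be expected to pass it. Such counts were not made over all regions. The members' median change on the spike-in scale was -0.10 at 1 h and 0.25 at 5 h (log2). Over all regions tested it was -0.19 and 0.24. edgeR's quasi-likelihood test, run on the recovered tags, called 17 members higher and 4 lower at 1 h, against 2.58% and 5.37% of all regions, and 8 higher and 9 lower at 5 h, against 1.59% and 1.75%. These calls therefore depend on the test.

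By edgeR's test, TLE4, a Groucho corepressor, was highest among well-measured members at 1 h of BMH-21, but its libraries were far apart at 234% and 127% (log2 1.05, adjusted p = 0.00198). PSME4, the proteasome activator PA200, was at 133% and 122% (log2 0.56, edgeR adjusted p = 0.0116). LHPP, a phosphatase, was at 52.9% and 48.9% at 1 h (log2 -0.77, edgeR adjusted p = 0.0116) and KDM4B, a histone demethylase, at 58.6% and 57.4% (log2 -0.59, adjusted p = 0.0356). RPRD2, which binds the tail of RNA polymerase II, and MAP3K13 were the other 2 members lower at 1 h (MAP3K13 named after its value was seen). At 5 h LRIG1, which restrains receptors of the EGFR family, was at 196% and 187%, with 1590.5 and 1244 tags against 323 and 540 (log2 0.70, edgeR adjusted p = 0.00179). CLIP2, a microtubule-binding protein, was at 206% and 164%, and NBPF20 at 228% and 201%. NBPF20 belongs to a family of near-identical copies, so its tags are uncertain. LIPI, a lipase, was at 53.9% and 45.5% (log2 -1.27, edgeR adjusted p = 0.000365).

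With ML-60218 the median level was 104% ± 1.68 at 1 h and 87.0% ± 8.28 at 5 h (SD, n = 2), against 101% ± 4.85 and 93.5% ± 10.3 over all regions. At 5 h both libraries lay below 100% for 206 of 343 members (60.1%), against 44.5% of all regions. limma called 0 of 500 members at either time on either scale, as it called 0% of all regions. At an unadjusted p under 0.05 it gave 4 higher and 4 lower at 1 h and 9 and 52 at 5 h on the relative scale. On the spike-in scale it gave 8 and 6 at 1 h and 7 and 71 at 5 h. Here too a share of 0.05 of tests would be expected to pass with no change. Such counts were not made over all regions. edgeR called 0 members at 1 h, and at 5 h 6 higher and 23 lower, against 4.18% and 2.3% of all regions. At 5 h the members' median change on the relative scale was -0.13, against -0.02 for all regions (log2).

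SEC24D, a subunit of the COPII coat, was at 151% and 178% after 5 h of ML-60218 (log2 0.81, edgeR adjusted p = 0.00379), and CLIP2 at 150% and 161% (log2 0.71, adjusted p = 0.0171). CELSR1, a planar polarity cadherin, was at 128% in both libraries. Below untreated stood LIPI (40.7% and 51.0%, log2 -1.06, edgeR adjusted p = 0.00588), NSF, the ATPase that takes SNARE complexes apart (48.8% and 58.7%, log2 -0.80, adjusted p = 0.00296), and RFX7, a transcription factor (51.1% and 61.7%, log2 -0.73, adjusted p = 0.00489). For each of these the groups did not overlap, which was a condition for being named and so was fixed by the choice. NSF has a partial copy nearby that may share reads. SCMH1 was at 53.3% and 69.0% and FIRRE at 57.9% and 67.1%.

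**Figure D5:**
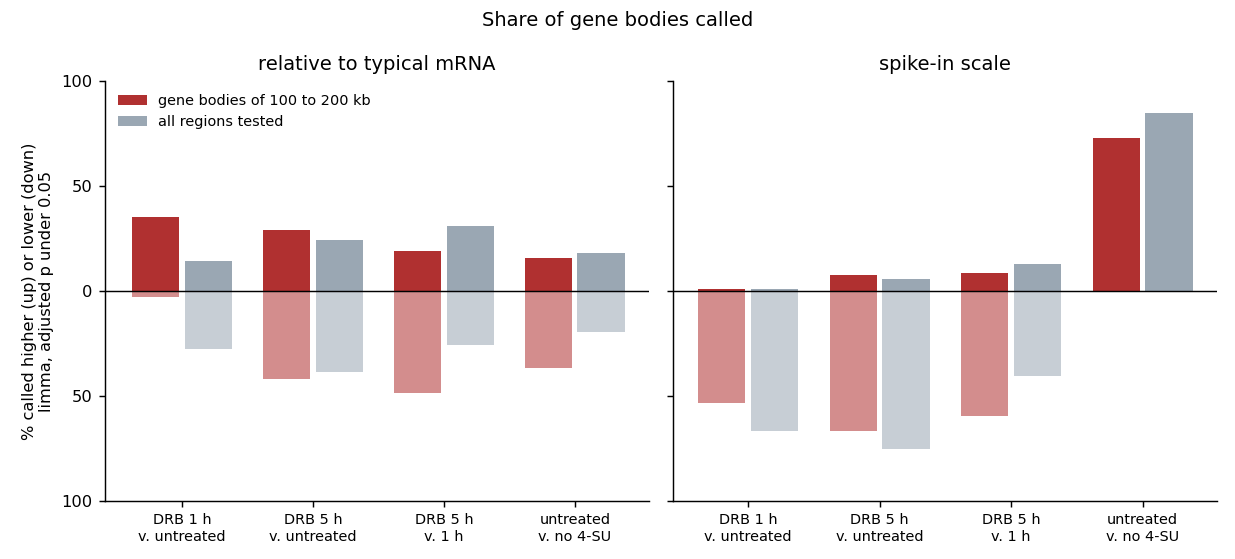
Share of members and of all regions called higher (upward bars) or lower (downward bars) by limma, in percent of those tested, on the relative scale (left) and the spike-in scale (right). The comparisons are DRB at 1 h and at 5 h with untreated, DRB at 5 h with 1 h (500 members and 5532 regions tested in each), and untreated with no 4-SU (561 and 5769). On the relative scale at 1 h of DRB 35% of members and 14.2% of all regions were higher.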

How the data were processed

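Nascent RNA of 16 HAP1 libraries was measured by TT-chem-seq, with yeast RNA as a spike-in and 10 PCR cycles, per the labels' protocols. The submitters' processing notes name FastQC 0.11.9, Trim Galore 0.6.5, STAR 2.7.7a, HOMER and the builds GRCh38 and R64. Per the file headers, the deposited signal per gene body is HOMER tags on hg38, scaled to 10M per library and counted without a strand option, although the column heading calls it a raw count. The authors also deposited a ratio per library that sets its value, scaled by the spike-in, against the like-numbered untreated library. The deposited tables of rRNA and tRNA genes were not used.

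Multiplied back by the library total, 91787 of 91787 values under 200 tags fell on steps of 0.5 tag to within 0.005 of the unit deposited. In 15 of 16 columns this recovers the tags, and in the second BMH-21 5 h library the step cannot be told from rounding. Since the values were not raw counts, the planned fallback applied: limma's trend method on log2(value + 0.5) over regions kept by edgeR's filterByExpr (minimum 10 tags). The 14 labelled libraries were fitted by group (all 16 for the comparison with unlabelled cells), and p-values were adjusted by Benjamini-Hochberg over all regions tested, at a threshold of 0.05. The relative scale uses the gene-body sum times a TMM factor. The spike-in scale uses factors implied by the deposited ratios, with the library number as a block because the factors are known only within a number. The added 0.5 matters for genes with few tags.

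Named genes passed the test with a mean of at least 50 tags and groups that did not overlap, and had no placeholder symbol (the 8 largest rises and the 8 largest falls were taken). With few limma calls the rule was applied to edgeR's quasi-likelihood test. Added to these were the 6 highest and 6 lowest levels among members with at least 200 untreated tags, up to 4 members of each function list, and the genes at the span limits. Members, lists and tests were chosen with earlier results of these data known. The error of a level is its SD and that of a log2 change its SE. Counting intervals are exact at 95%, and they and the floor of 3 tags cover counting error only. Promoters and gene types come from RefSeq (GRCh38.p14), matched by symbol. Results for some members are not reported here. The scripts were tested on simulated data. Software was Python 3.11.15 with pandas 2.3.3, scipy 1.17.1 and matplotlib 3.10.9, and limma 3.58.1, edgeR 4.0.16 and DESeq2 1.42.0 in R 4.3.3.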

Additional observations from a re-analysis of the deposited data

Results flagged for a closer look

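The response to DRB differed between 1 h and 5 h in many members by the direct test of one time against the other on the spike-in scale (limma, adjusted p under 0.05, n = 2 per group). The level was lower at 5 h than at 1 h in 299 members and higher at 5 h in 43, where the shares of all regions were 40.6% and 12.9%. Of the 43, 8 had at least 50 untreated tags: AGBL3, CAMK2B, LGR6, NMNAT2, POF1B, RFTN2, SGK3 and TLL2.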

How the results depend on the processing

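On the spike-in scale the total of calls in each of the 4 comparisons with calls stayed within 1.5 times under the alternatives tried (no filter on low tags, a pseudocount of 2, no block, and each library left out). The counts of rises did not: without the first untreated library the 37 at DRB 5 h became 20 and the 5 at DRB 1 h became 2, and the 5 became 3 with no filter and without either DRB 1 h library. Without the replicate block it gave 265 calls for DRB 1 h, 371 for DRB 5 h, 337 for 5 h against 1 h and 411 for labelled against unlabelled cells, in place of 272, 370, 342 and 408. On the relative scale the replicate block gave 195, 360, 344 and 292 calls in place of 189, 356, 339 and 295, and 0 as before for BMH-21 and ML-60218. On the relative scale the correlations of same-numbered libraries ran from -0.0362 to 0.192, so the main fit there does not treat the numbers as pairs. On the spike-in scale levels are taken against the like-numbered untreated library, and the main fit holds the number as a block. With BMH-21 at 1 h, where limma called 0, DESeq2 called 40, edgeR 21 and limma on the 4 libraries compared 27. The same 3 gave 31, 17 and 33 with BMH-21 at 5 h, 50, 29 and 73 with ML-60218 at 5 h, and 0 each with ML-60218 at 1 h. Over all regions the 3 called 475, 440 and 383 with BMH-21 at 1 h, and 224, 185 and 278 at 5 h. With ML-60218 they called 9, 3 and 1 regions at 1 h, and 473, 358 and 755 at 5 h. DESeq2 and edgeR tested 500 members and 5532 regions. The fit of 4 libraries tested 368 to 428 members and 4270 to 4949 regions. For DRB 1 h DESeq2 called 306, and with single libraries left out the count was 99 to 152. For DRB 5 h the 4 libraries alone gave 177 (90 higher, 87 lower), and the main split of 145 higher and 211 lower became 166 and 117 with DESeq2, 167 and 169 with DESeq2's size factors and 110 and 238 with no filter. For 5 h against 1 h the main split of 95 higher and 244 lower became 35 and 198 with the 4 libraries alone and 58 and 214 with edgeR. For labelled against unlabelled cells, leaving out single libraries gave 170 to 303, and no filter gave 134 higher and 165 lower in place of 88 and 207. The fits with fewer libraries have fewer degrees of freedom, and the fit of 4 libraries estimates the spread without the other groups. Over all genes the median SD of log2 values was 0.34 and 0.49 with DRB for 1 h and 5 h. In the other labelled groups it ran from 0.12 to 0.21. The cause of the shifts was not tested. The median level at DRB 5 h was 9.08% with a minimum of 200 untreated tags in place of 10.6%, and bins of 25 kb gave a difference between the longest and shortest members at DRB 1 h of 17.4 points in place of 15.6. Of 1045 values of named genes under alternatives 0 reversed in direction. DESeq2 and edgeR kept the calls of all genes named for DRB 1 h (16), DRB 5 h (16), 5 h against 1 h (13) and labelled cells (16). With the 4 libraries alone 14, 13, 11 and 16 of these calls stayed. DESeq2's size factors kept 15 at DRB 1 h. Some calls at DRB 1 h and for labelled cells were lost when a library was left out. Genes named for BMH-21 and ML-60218 were chosen by edgeR's calls, so their passing under edgeR was fixed by the choice. Depth limits the DRB 5 h values most.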

Other observations

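The 77 members that hold a further RefSeq gene and at least 50 untreated tags had a median of 52.9% ± 7.47 after 1 h and 10.7% ± 0.893 after 5 h of DRB (SD, n = 2), and the 266 others 49.8% ± 5.60 and 10.4% ± 1.18. Taken within each library, the former were higher by 1.80 and 4.43 percentage points after 1 h and by 0.127 and 0.529 after 5 h. After 5 h of DRB the least dense tertile of the members had a median of 15.5% ± 0.304, and the middle and densest tertiles 8.60% ± 0.635 and 8.85% ± 0.903. After 1 h the same tertiles were at 51.6% ± 6.50, 51.9% ± 8.85 and 49.6% ± 4.69. Between the libraries of a group the order of members was kept to a like degree at both times, with Spearman's rho of 0.737 at 1 h and 0.740 at 5 h over 343 members that share each library, whereas for ML-60218 at 1 h it was 0.238.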
